A study of Homo sapiens with 6 samples.

Results

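The YAP and TAZ pathway was followed in HCC827 cells through 10 genes, which were YAP1, WWTR1, TEAD1, AJUBA, LATS2, AMOTL2, CCN1, CCN2, ANKRD1 and AXL, measured by 10 of 22011 probe sets. These genes were named for their known roles and with earlier results of the same arrays in view, and the probe set that stands for a gene was chosen by its highest mean signal over the 6 arrays. All 10 genes were measured. AMOTL2 was measured only by a probe set that it shares with the ribosomal protein pseudogene RPL39P5, and the other 9 genes were among the 14232 genes with a probe set that carries their symbol alone. HCC827 is an established lung adenocarcinoma cell line with an activating deletion in EGFR, the receptor for epidermal growth factor. Total RNA of 3 samples grown in 2D with no coating and of 3 samples grown in 3D was hybridised to Affymetrix human exon arrays, and the labels name no drug for any of them. According to the labels, the 3D samples were spheroids made in hanging drops and placed into Matrigel, a gel of basement membrane proteins. The study's text calls the array samples spheroids and does not say that they were embedded, and its methods for embedded cultures add collagen I to the gel. The labels were followed here, and under them the third dimension and the contact with the gel cannot be told apart. The labels do not say whether replicates were separate cultures, and the p-values therefore rest on the scatter among these 6 arrays alone, which may be technical.

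YAP (encoded by YAP1) and TAZ (encoded by WWTR1) are closely related coactivators that enter the nucleus and bind the TEAD transcription factors, which carry them to DNA. The kinases of the Hippo pathway, with the LATS kinases as the last step, phosphorylate YAP and TAZ and hold them in the cytoplasm, and this is known to follow cell density, cell shape and the stiffness of the substrate. Much of this control acts on proteins, so that the RNA of YAP1 and WWTR1 does not report where the proteins are, while the RNA of target genes such as CCN1, CCN2 and ANKRD1 is widely used as a readout of their activity.

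Target genes are recognised through the TEAD binding motif GGAATG, which reads CATTCC on the other strand. The sequences that RefSeq places in the 250 bases before a transcription start (build GRCh38.p14) are shown here for 4 of the genes, to let a reader see where this motif lies in AJUBA, the gene that passed the test, and in the targets CCN2, ANKRD1 and AMOTL2, which did not. They run 5′ to 3′ along the gene's strand, and capitals mark the motif on either strand.
CCN2, chr6:131951373-131951622, minus strand: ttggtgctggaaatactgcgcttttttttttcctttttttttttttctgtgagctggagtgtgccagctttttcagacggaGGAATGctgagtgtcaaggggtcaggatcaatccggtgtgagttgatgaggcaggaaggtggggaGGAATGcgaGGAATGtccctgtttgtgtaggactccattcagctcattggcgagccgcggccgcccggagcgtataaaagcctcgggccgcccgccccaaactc
ANKRD1, chr10:90921088-90921337, minus strand: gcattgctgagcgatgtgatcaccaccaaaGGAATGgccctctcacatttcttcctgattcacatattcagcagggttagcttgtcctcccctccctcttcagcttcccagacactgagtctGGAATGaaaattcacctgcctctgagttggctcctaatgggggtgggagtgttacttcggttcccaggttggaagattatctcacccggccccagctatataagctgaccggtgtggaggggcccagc
AJUBA, the downstream of its 2 starts, chr14:22976843-22977092, minus strand: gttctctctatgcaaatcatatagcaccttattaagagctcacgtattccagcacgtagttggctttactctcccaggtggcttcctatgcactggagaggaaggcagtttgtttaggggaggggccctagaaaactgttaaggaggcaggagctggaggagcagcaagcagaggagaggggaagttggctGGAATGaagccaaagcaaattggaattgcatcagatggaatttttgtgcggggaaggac
AMOTL2, the downstream of its 2 starts, chr3:134374448-134374697, minus strand: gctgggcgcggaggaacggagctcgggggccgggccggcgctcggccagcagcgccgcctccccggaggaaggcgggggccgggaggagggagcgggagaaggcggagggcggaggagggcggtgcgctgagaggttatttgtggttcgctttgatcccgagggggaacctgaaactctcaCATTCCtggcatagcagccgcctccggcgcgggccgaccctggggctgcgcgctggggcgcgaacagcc

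The CCN2 window held 3 matches, which began 169, 104 and 95 bases before the start, and the ANKRD1 window held 2, which began 220 and 128 bases before it. The AJUBA and AMOTL2 windows shown held 1 each, at 59 and 69 bases. A window was listed for 8 of the 10 genes (12 windows, since some genes have 2 starts), with CCN1 and TEAD1 not among them. The motif stood in 6 of these 12 windows, against 11.9% of 35116 windows of the same length outside chromosome 8. Because the genes were named for known roles in this pathway, and some have 2 windows, these shares are a description and no test. At least 2 matches stood in 0.94% of the 35116 windows. The further windows with a match were that of YAP1, and 1 of the 2 windows of AXL. For AJUBA and AMOTL2 the window shown is the one with a match. No match stood in the other windows of AJUBA, AMOTL2 and AXL, in either window of WWTR1 or in that of LATS2. The AP-1 factors often act together with TEAD. Their motif was searched in the loose form TGANTCA, where N is any base, and this pattern overlaps no TEAD match here. The pattern stood in 1 of the 12 windows (that of ANKRD1, with T in place of N) and in 6.57% of the 35116 windows. A match is a stretch of letters and not a proven binding site, and no match says only that these letters are not in this window.

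Of the 10 genes, 1 fell in 3D at an adjusted p under 0.05 and 0 rose (limma, Benjamini-Hochberg over all 22011 probe sets). Across all probe sets 0.236% were called lower and 0.145% were called higher. The gene that fell was AJUBA. In 5 genes, AJUBA, CCN1, CCN2, ANKRD1 and TEAD1, every 3D array lay below every 2D array, which held for 10.0% of all probe sets, and in 0 genes did every 3D array lie above every 2D array, which held for 12.7%. In the other 5 genes, YAP1, WWTR1, LATS2, AMOTL2 and AXL, the groups overlapped. The median log2 difference (3D minus 2D) of the 10 genes was -0.25, against 0.071 over all 14232 genes. In bulk RNA, fewer cells that express a gene and less RNA per cell cannot be told apart.

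**Figure D1:**
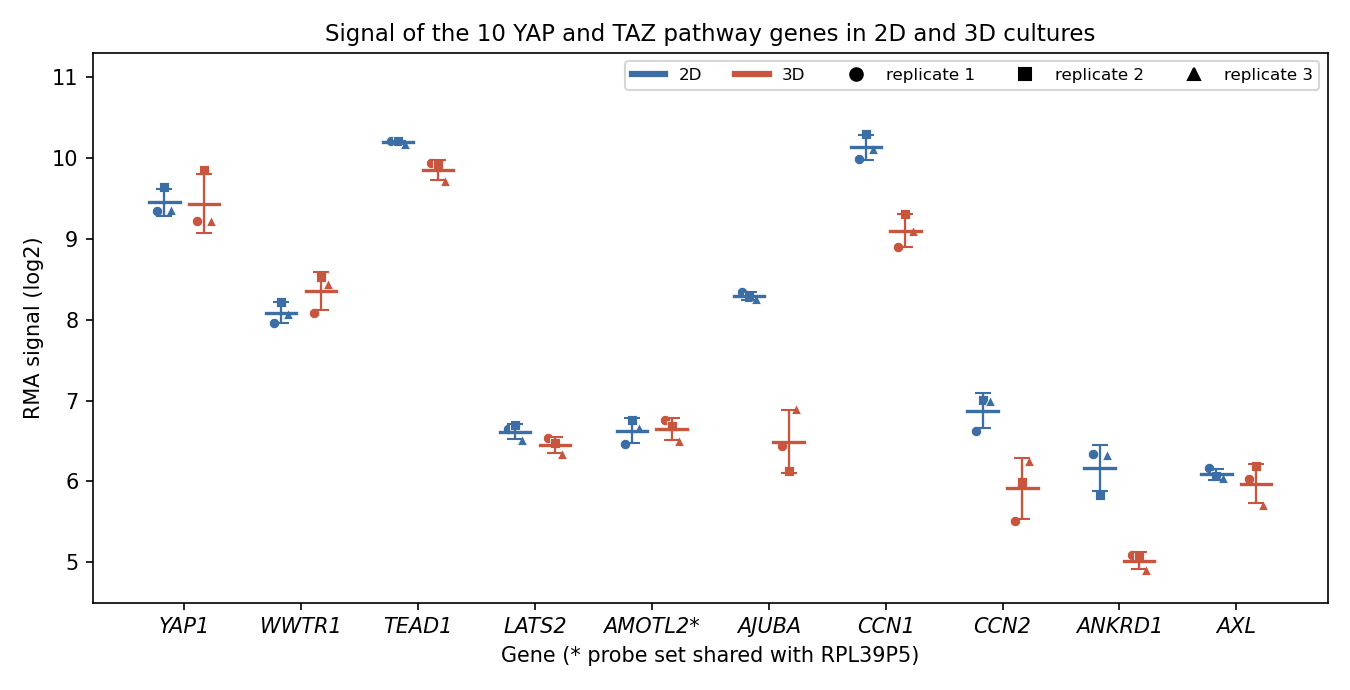
RMA signal on the log2 scale (y axis) of the 10 genes (x axis) in 3 arrays of 2D cultures (blue) and 3 arrays of 3D cultures (red), with symbols for replicates, lines for group means and bars for the SD (n = 3). The 3D arrays of AJUBA lie between 6.13 and 6.90, all below the 2D arrays at 8.25 to 8.34, while the groups of YAP1, WWTR1, LATS2, AMOTL2 and AXL overlap. Signals of different genes come from different probes and cannot be set against each other.

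Neither coactivator gene passed the test, and both had overlapping groups. YAP1 had log2 signals of 9.35, 9.64 and 9.36 in 2D replicates 1 to 3 and of 9.22, 9.86 and 9.23 in 3D replicates 1 to 3. Replicate 2 was the highest array of each group, and the spread within 3D was larger than the distance between the group means. The 2D mean was 9.45 ± 0.17 (SD, n = 3) and the 3D mean 9.43 ± 0.36 (SD, n = 3), which gave a log2 difference of -0.017 with a 95% confidence interval from -0.51 to 0.48 (adjusted p = 0.974 by limma). The interval leaves room for a change of YAP1 RNA by up to about that size in either direction, and the sign turned without single arrays (-0.23 to 0.088). WWTR1 had signals of 7.96, 8.22 and 8.07 in 2D and of 8.09, 8.53 and 8.45 in 3D. Of the 3D arrays, replicates 2 and 3 lay above all 2D arrays and replicate 1 lay among them. The log2 difference was 0.27 with an interval from -0.14 to 0.67 (adjusted p = 0.486 by limma), with values of 0.18 to 0.40 when 1 array was left out.

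TEAD1 encodes 1 of the 4 TEAD factors that bring YAP and TAZ to DNA. Its brightest probe set had signals of 10.21, 10.21 and 10.18 in 2D and of 9.94, 9.92 and 9.71 in 3D. All 3D arrays lay below the tight group of 2D arrays, yet the log2 difference of -0.34 (SE, the standard error, 0.14) missed the threshold (adjusted p = 0.323 by limma). A further probe set that carries the symbol TEAD1 alone had signals of 8.96, 8.94 and 9.06 in 2D and of 8.16, 8.60 and 8.35 in 3D, a log2 difference of -0.62 (SE 0.17, adjusted p = 0.172 by limma). Both probe sets of TEAD1 thus had every 3D array below every 2D array, and their sizes differed. The mean over both had a log2 difference of -0.48 (adjusted p = 0.21 by limma). The paralogs TEAD2, TEAD3 and TEAD4 overlapped between the groups, with log2 differences of 0.27, -0.026 and 0.12 (adjusted p = 0.491, 0.949 and 0.771 by limma). The sign of TEAD3 turned without 2D replicate 2 or 3D replicate 2 and with array weights, and that of TEAD4 turned without 3D replicate 2.

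AJUBA, a LIM domain protein of cell junctions that binds the LATS kinases and restrains them, was the gene of the 10 with the largest difference. It had signals of 8.34, 8.29 and 8.25 in 2D and of 6.44, 6.13 and 6.90 in 3D. The 2D arrays lay within a narrow band, and the highest 3D array was below it by a wide gap of 1.35. The 2D mean of AJUBA was 8.29 ± 0.045 (SD, n = 3), against 6.49 ± 0.39 (SD, n = 3) for 3D. AJUBA was 3.49-fold lower in 3D, with a log2 difference of -1.80 (SE 0.21, 95% confidence interval -2.29 to -1.31, adjusted p = 0.0222 by limma). The difference lay between -2.01 and -1.62 without single arrays. The call was lost without 2D replicates 1, 2 and 3 in turn (adjusted p = 0.15, 0.103 and 0.115) and without 3D replicate 1 (adjusted p = 0.0865), and was kept without 3D replicate 2 or 3. Among all probe sets 84 were called with the 6 arrays, and 0, 0, 0 and 7 were called without these 4 arrays. LIMD1, a paralog of AJUBA, was measured only by a probe set shared with its antisense gene LIMD1-AS1, which had a log2 difference of -0.17 (adjusted p = 0.58 by limma).

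LATS2 encodes a LATS kinase, which phosphorylates YAP and TAZ, and it is itself a target of YAP. It had signals of 6.64, 6.69 and 6.51 in 2D and of 6.54, 6.47 and 6.34 in 3D. The groups overlapped through 1 array of each, and the log2 difference was -0.17 with an interval from -0.50 to 0.17 (adjusted p = 0.599 by limma). AMOTL2, which encodes a junction protein of the angiomotin family that binds YAP and is also a target, shares its probe set with RPL39P5. This probe set had signals of 6.46, 6.76 and 6.66 in 2D and of 6.75, 6.69 and 6.50 in 3D. The groups overlapped over most of their range, with a log2 difference of 0.018 and an interval from -0.35 to 0.39 (adjusted p = 0.965 by limma). The angiomotin paralogs AMOT and AMOTL1 differed by -0.36 and -0.23 on the log2 scale (adjusted p = 0.392 and 0.577 by limma), where the 3D arrays of AMOT lay below its 2D arrays and those of AMOTL1 did not.

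The secreted matricellular proteins CCN1 and CCN2, which bind integrins and matrix, and the nuclear ankyrin repeat protein ANKRD1 are among the most used readouts of YAP and TAZ. CCN1 had signals of 9.99, 10.30 and 10.11 in 2D and of 8.90, 9.30 and 9.10 in 3D. The lowest 2D array was above the highest 3D array by 0.69. The means were 10.13 ± 0.15 (SD, n = 3) and 9.10 ± 0.20 (SD, n = 3), a log2 difference of -1.03 (SE 0.17, interval -1.43 to -0.64), which did not pass the threshold over all probe sets (adjusted p = 0.0636 by limma). CCN2 had signals of 6.63, 7.00 and 7.00 in 2D and of 5.51, 5.99 and 6.25 in 3D. Its groups also lay apart, though 3D replicate 3 came within 0.37 of 2D replicate 1. The log2 difference of CCN2 was -0.96 (SE 0.23, interval -1.48 to -0.44, adjusted p = 0.13 by limma), and leaving out 3D replicate 1 gave -0.76, while leaving out 3D replicate 3 gave -1.13.

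ANKRD1 had signals of 6.34, 5.83 and 6.32 in 2D and of 5.09, 5.07 and 4.90 in 3D. The 3D arrays lay close together and all below 2D replicate 2, the lowest 2D array. The log2 difference was -1.15 (SE 0.18, interval -1.57 to -0.72, adjusted p = 0.061 by limma). The mean signal of ANKRD1 in 3D lay at percentile 24.0 of all probe sets, and the files hold no call of signal against background. CCN1, CCN2 and ANKRD1 thus had differences of similar size, and 0 of the 3 passed the threshold. With array weights, which give less weight to arrays that stray from their group, CCN1 and ANKRD1 passed (adjusted p = 0.0228 and 0.0218 by limma), and CCN1 also passed without 3D replicate 2 (0.0474) and with dim probe sets left out (0.0355). CCN2 passed under no alternative, at adjusted p-values of 0.0708 to 0.442.

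AXL, a receptor tyrosine kinase known for its part in escape from EGFR inhibitors, is a further target of YAP and TEAD. It had signals of 6.17, 6.06 and 6.04 in 2D and of 6.03, 6.18 and 5.70 in 3D. The 3D arrays spread around the 2D arrays, with replicate 3 alone clearly below. The log2 difference was -0.12 with an interval from -0.51 to 0.28 (adjusted p = 0.76 by limma), and it was 0.017 without 3D replicate 3. MERTK, a paralog of AXL, had 3D arrays below its 2D arrays and a log2 difference of -0.55 (adjusted p = 0.218 by limma). The CCN family members CCN3, CCN4, CCN5 and CCN6 did not pass the test and had values above 0, with log2 differences of 0.18, 0.18, 0.34 and 0.34 (adjusted p = 0.571, 0.671, 0.565 and 0.362 by limma). The 3D arrays of CCN3 and CCN6 lay above their 2D arrays, by narrow gaps of 0.0090 and 0.062, and the groups of CCN4 and CCN5 overlapped. Of the 11 measured paralogs, 2 had all 3D arrays below and 2 had all 3D arrays above the 2D arrays. Over all probe sets, this held for 10.0% and 12.7%. ANKRD2, a paralog of ANKRD1, had 0.15 (adjusted p = 0.63 by limma).

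**Figure D2:**
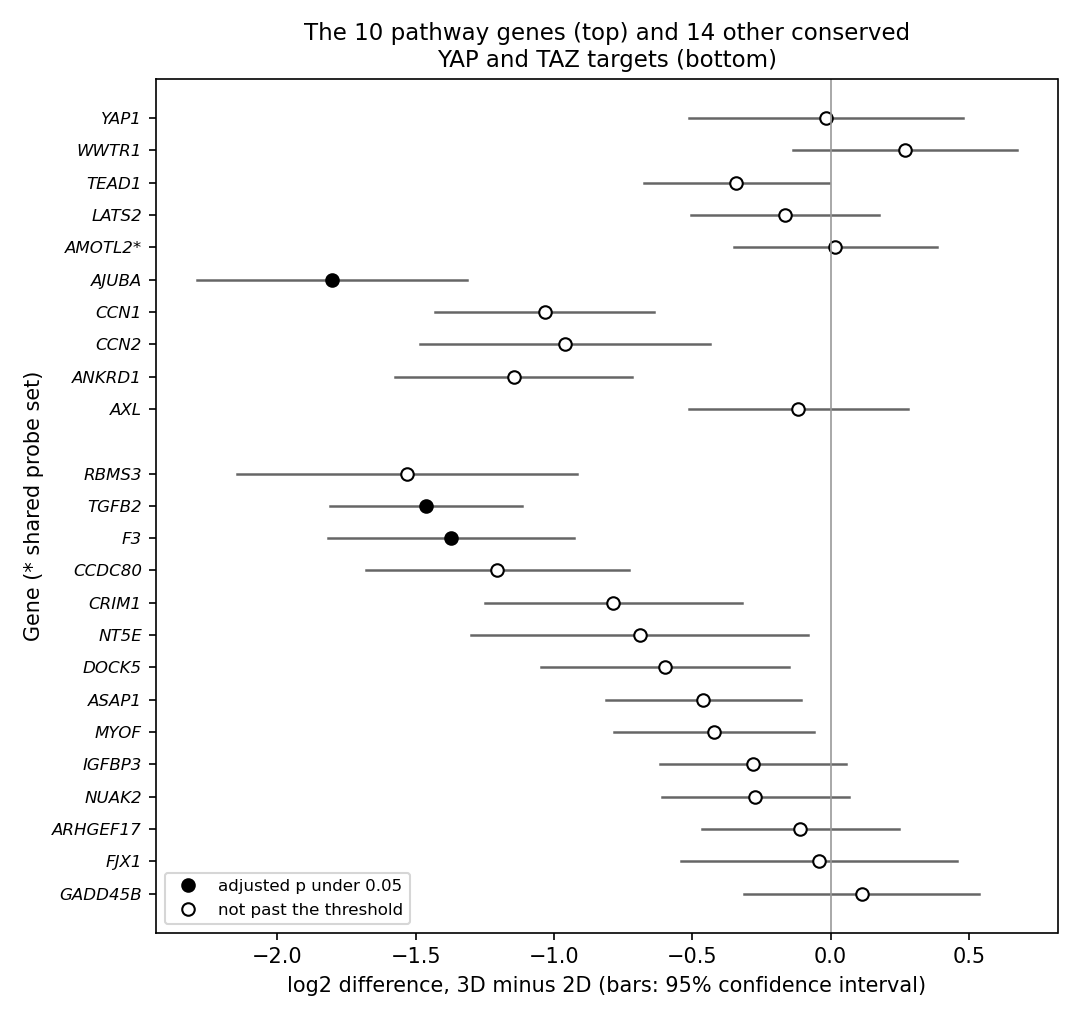
The log2 difference between 3D and 2D (x axis, points) with its 95% confidence interval (bars) for the 10 genes (top) and 14 other conserved YAP and TAZ targets (bottom, y axis). Filled points passed an adjusted p of 0.05. AJUBA at -1.80, TGFB2 at -1.46 and F3 at -1.37 are filled, the intervals of CCN1, CCN2 and ANKRD1 lie below 0, and those of YAP1, WWTR1, LATS2, AMOTL2 and AXL span 0.

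CCN1, CCN2, ANKRD1, LATS2, AMOTL2 and AXL belong to a list of 22 genes that YAP and TAZ are known to activate in many cancers. Besides these 6, the list has 16 genes, of which 14 had a probe set of their own. Of these 14, 2 fell in 3D (against 0.236% of all probe sets), 0 rose (against 0.145%) and 12 did not pass the test (limma). The log2 difference was below 0 for 13 and above 0 for 1, with a median of -0.53 against 0.071 over all genes, and every 3D array lay below every 2D array in 11 of the 14, against 10.0% of all probe sets. TGFB2, which encodes a ligand of the TGF-beta family, had signals of 9.60, 9.70 and 9.85 in 2D and of 8.32, 8.15 and 8.29 in 3D. Both groups were tight, and the distance between them was wide. TGFB2 was 2.76-fold lower in 3D, with a log2 difference of -1.46 (SE 0.15, adjusted p = 0.0174 by limma). F3, which encodes tissue factor, the receptor that starts blood coagulation, had signals of 10.16, 10.13 and 10.22 in 2D and of 8.96, 8.42 and 9.01 in 3D. Its 2D arrays almost coincided, and 3D replicate 2 was the lowest. F3 was 2.59-fold lower in 3D, with a log2 difference of -1.37 (SE 0.19, adjusted p = 0.0389 by limma). As for AJUBA, the calls of TGFB2 and F3 ended when any 2D array or 3D replicate 1 was left out (adjusted p = 0.0693 to 0.123 for TGFB2 and 0.10 to 0.217 for F3).

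Named after their values were seen, RBMS3, which encodes an RNA-binding protein, and CCDC80, which encodes a secreted matrix protein, stood at log2 differences of -1.53 and -1.20 (adjusted p = 0.0668 and 0.0657 by limma). RBMS3 passed without 3D replicate 3 (0.0196), with array weights (0.0276) and with dim probe sets left out (0.0355). CCDC80 passed under the same settings (0.039, 0.0236 and 0.0355). Of the 14 other targets with a probe set of their own, 1 lay above 0. This was GADD45B, a stress-induced gene that many other signals also switch on, at 0.11 (adjusted p = 0.788 by limma) and at -0.053 without 3D replicate 2. PTPN14, a phosphatase that binds YAP and is also a target, shares its probe set with AP3S1 and AP3S1P2. This probe set had every 3D array below every 2D array and a log2 difference of -1.04 (adjusted p = 0.0888 by limma). FOXF2, a further gene of the list, shares its probe set with FOXF1. That probe set had overlapping groups and a log2 difference of 0.27 (adjusted p = 0.508 by limma).

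**Figure D3:**
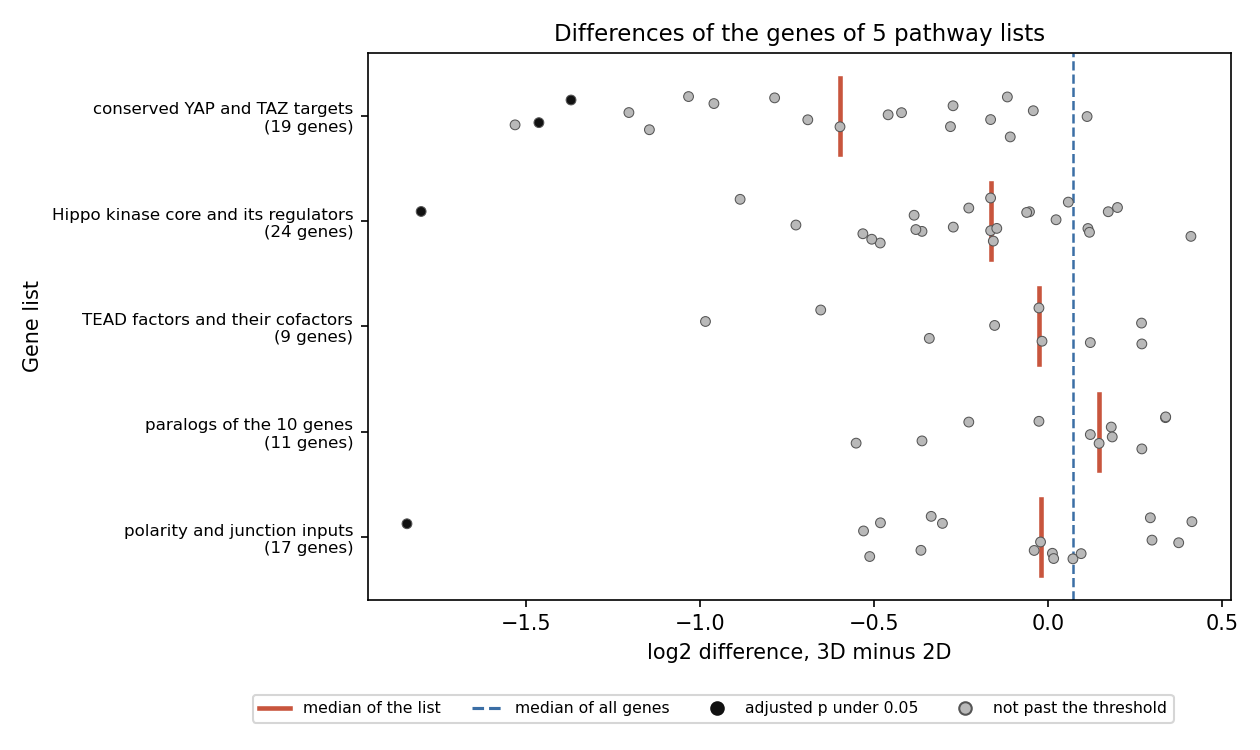
The log2 difference between 3D and 2D (x axis) of each gene with a probe set of its own (points, black where the adjusted p is under 0.05) in 5 lists (y axis), with the median of the list (red line) and of all genes (dashed line). The conserved targets have a median of -0.60, the kinase core -0.17, the TEAD factors and cofactors -0.026, the paralogs 0.15 and the polarity and junction genes -0.022, against 0.071 for all genes. Some genes stand in 2 lists, and vertical offsets within a list have no meaning.

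Of 24 measured genes of the Hippo kinase core and its regulators, AJUBA alone fell, 0 rose and 23 did not pass the test (limma). Calls over all probe sets were 0.236% lower and 0.145% higher. Within the list, the log2 difference was below 0 for 17 and above 0 for 7, with a median of -0.17. The largest difference above 0 was that of STRN3, which encodes a subunit of a phosphatase complex that opposes the kinases STK3 and STK4, at 0.41 (adjusted p = 0.244 by limma), with every 3D array above every 2D array. Named after their values were seen, WWC1 and WWC2, which encode scaffolds of the KIBRA family that activate LATS, stood at log2 differences of -0.53 and -0.88 (adjusted p = 0.214 and 0.166 by limma), and MOB1B, which encodes a cofactor of LATS, had -0.72 (adjusted p = 0.282 by limma, and -0.40 without 3D replicate 2). In all 3 genes the 3D arrays lay below the 2D arrays. Over the list this held for 8 of 24 genes, against 10.0% of all probe sets, and the 3D arrays lay above the 2D arrays in 1, STRN3, against 12.7%.

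Of 9 measured TEAD factors and cofactors, 0 rose and 0 fell (limma), and before adjustment 3 had a p under 0.05, all with lower signals in 3D, as had 1748 of all 22011 probe sets. VGLL1, a cofactor that competes with YAP and TAZ for TEAD, had signals of 7.27, 7.46 and 7.11 in 2D and of 6.52, 6.20 and 6.17 in 3D. All 3D arrays lay below all 2D arrays, and the log2 difference was -0.98 (SE 0.17, adjusted p = 0.0671 by limma). VGLL1 passed with dim probe sets left out (0.0421) and with array weights (0.0439).

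Cell junctions and polarity complexes are known inputs to the Hippo pathway. Of 17 measured genes of this kind, 1 fell, 0 rose and 16 did not pass the test (limma), with a median log2 difference of -0.022. Calls over all probe sets were 0.236% lower and 0.145% higher. Every 3D array lay below every 2D array in 6 of the 17, against 10.0% of all probe sets. The 3D arrays lay above the 2D arrays in 2, against 12.7%. FAT4, a giant cadherin related to the fly protein that acts upstream of Hippo, had signals of 7.40, 7.32 and 7.51 in 2D and of 5.63, 5.23 and 5.84 in 3D. The 2 groups were far apart, and FAT4 was 3.59-fold lower in 3D, with a log2 difference of -1.84 (SE 0.19, adjusted p = 0.0174 by limma). Leaving out any 2D array or 3D replicate 1 ended the call (adjusted p = 0.0693 to 0.131). PARD6B, a subunit of the PAR polarity complex, had the largest difference above 0 at 0.41 (adjusted p = 0.363 by limma).

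**Figure D4:**
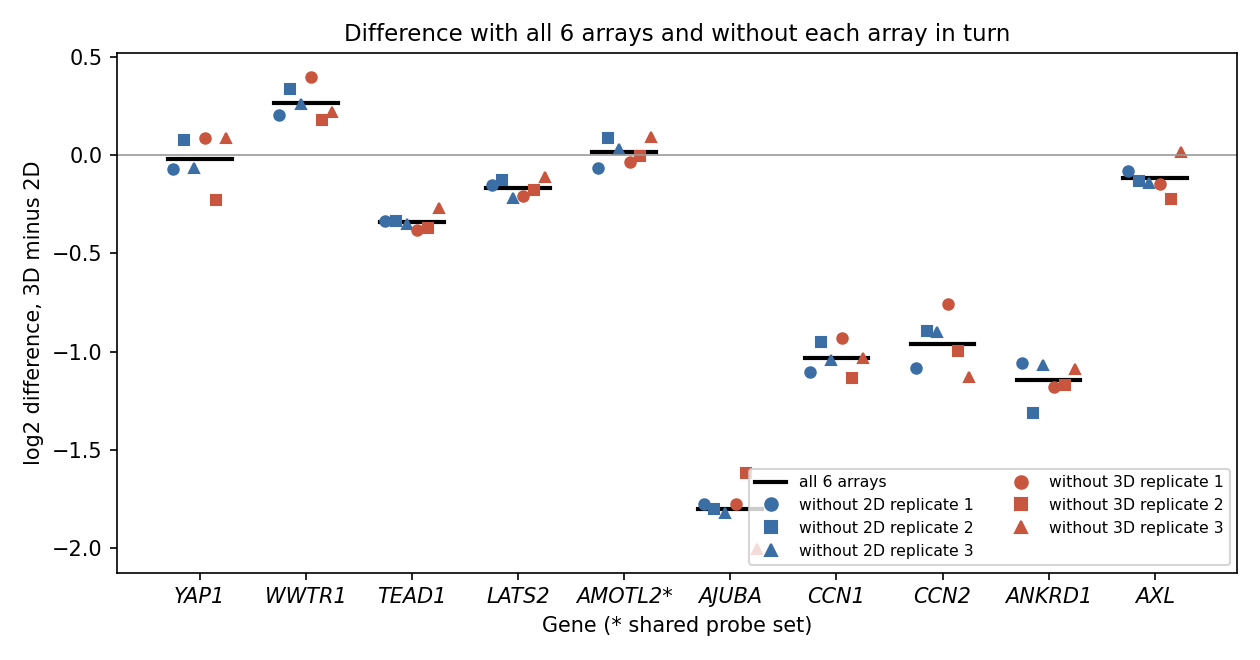
The log2 difference between 3D and 2D (y axis) of the 10 genes (x axis) with all 6 arrays (black lines) and without each array in turn (blue for a 2D array, red for a 3D array, symbols for replicates). AJUBA stays between -2.01 and -1.62, CCN1 between -1.13 and -0.93, CCN2 between -1.13 and -0.76 and ANKRD1 between -1.31 and -1.06, while YAP1, AMOTL2 and AXL take both signs.

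The arrays had the same distribution of signals. Pearson's r over probe sets, which are not independent, ranged from 0.980 to 0.987 within 2D, from 0.956 to 0.974 within 3D and from 0.943 to 0.975 across the groups, and 3D replicate 2 lay farthest out on the first principal component. Epithelial markers were bright, and their mean log2 signal (6 of 6 genes) was 9.61 to 9.75 in 2D and 8.97 to 9.27 in 3D, where KRT19 had the largest difference of -1.16 (adjusted p = 0.127 by limma). The mean signal of fibroblast markers (8 of 8 genes) was 5.07 to 5.26 in 2D and 5.27 to 5.49 in 3D, that of endothelial markers (5 of 5) was 4.98 to 5.02 and 4.95 to 4.98, and that of immune markers (4 of 5) was 4.18 to 4.33 and 4.52 to 4.75. In these 3 lists 0 genes passed the test (limma), and CD14, at 0.71 (adjusted p = 0.144), was the 1 gene with an unadjusted p under 0.05. The fibroblast gene farthest from 0 was LUM at 0.41, and the endothelial genes farthest from 0 were KDR at -0.29 and CDH5 at 0.15. The mean levels of the epithelial, fibroblast and immune lists did not overlap between the groups, the fibroblast list by the narrowest margin, and their part in the differences of AJUBA, CCN1, CCN2 and ANKRD1 was not tested.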

How the data were processed

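Total RNA of 6 HCC827 samples (3 in 2D, 3 in 3D) was amplified, labelled with biotin and hybridised to Affymetrix Human Exon arrays. The authors deposited log2 signals made by RMA with the R package oligo (versions not given in the sources used here), which corrects background, equalises the distributions of arrays and gives 1 value for each of 22011 transcript clusters. These values were used unchanged. Symbols came from GEO's annotation of the array: 14432 probe sets had 1 symbol, 2408 had several and 5171 had none. Of 109 symbols in the lists, 96 had a probe set of their own, 8 only a shared one and 5 none.

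The 3D minus 2D difference of each probe set was estimated by limma 3.58.1 under R 4.3.3 (lmFit and eBayes, 2-sided, no covariate), and p-values were adjusted by Benjamini-Hochberg over all 22011 probe sets at a threshold of 0.05. The study's methods name limma without giving a covariate or a threshold. The fit was also run on simulated data with independent normal noise for each probe set. Such noise lacks shifts that the probe sets of 1 array share. That run checks the code and says nothing about the calls made here. The 10 genes and the lists were chosen with earlier results of these data known, so that their counts are descriptions. The genes to name were the 10 genes, their measured paralogs, the genes of each list past the threshold or, where none passed, with the largest difference in a direction, and the 5 genes most like CCN1 and CCN2. Alternatives were a filter on probe sets below percentile 40 of mean signal, an intensity trend, a robust prior, array weights, a replicate block, quantile normalization again, an adjusted p under 0.10, averaging of the probe sets that carry 1 gene's symbol, and each array left out. Promoter windows and motif counts came from RefSeq. Array data have no read depth, and the number of arrays limits the precision.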

Additional observations from a re-analysis of the deposited data

How the results depend on the processing

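Of the 10 genes 1 was called, and the count was 2 with dim probe sets left out, 3 with array weights, 3 at an adjusted p under 0.10 and 0 to 2 without single arrays. Over all probe sets 84 were called (52 lower, 32 higher), and 152 with dim probe sets left out (105 lower, 47 higher), 415 with array weights (283 lower, 132 higher) and 0 to 150 without single arrays. Of the 65 other pathway genes 3 were called, and 6 with dim probe sets left out, 6 with array weights and 0 to 5 without single arrays. The fits on 5 arrays used the spread that limma pools over both groups. ANKRD1 has no value with dim probe sets left out, since it is below that limit itself.

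The intensity trend, the robust prior and quantile normalization again changed none of these counts by over 1.5 times. Over the 43 genes named with values, 464 of 509 values under alternatives kept their sign and their side of the threshold, 16 lost the call, 17 gained it and 12 turned sign. The 12 were small: YAP1 was -0.23 to 0.088, AMOTL2 -0.066 to 0.093, AXL -0.22 to 0.017, TEAD3 -0.11 to 0.078, TEAD4 -0.029 to 0.26 and GADD45B -0.053 to 0.20 without single arrays, and TEAD3 was 0.045 with array weights. By construction, the dim filter, the intensity trend, the robust prior and the replicate block leave the differences as they are. The repeated normalization also left them, since the arrays already shared a distribution. Under these settings no sign could turn, and the count of kept signs is no test there.

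The main fit did not use the replicate numbers of the labels as pairs. The deviations of arrays with the same number correlated at 0.089, 0.37 and 0.22 for numbers 1 to 3. Those of arrays with different numbers correlated at -0.33 to 0.17. Each 3D array ran closest to the 2D array of its own number, narrowly so for numbers 1 and 3. Whether the numbers pair cultures is not known. With the replicate number as a block, 1 of the 10 genes, 86 probe sets and 3 other pathway genes were called. The adjusted p by limma was then 0.0373 for AJUBA, 0.0529 for CCN1, 0.0708 for CCN2 and 0.0694 for ANKRD1. Without the block these were 0.0222, 0.0636, 0.13 and 0.061.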

Other observations

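Over the 6 arrays, the genes whose signals ran most like the mean of CCN1 and CCN2 were SUN1, a protein of the nuclear envelope that links the nucleus to the cytoskeleton, DHCR7, the last enzyme of cholesterol synthesis, PGM1, an enzyme of glycogen metabolism, RPS6KA2, a kinase below ERK, and CDC20, an activator of the anaphase-promoting complex. Pearson's r was 0.996, 0.995, 0.994, 0.992 and 0.992. These are the 5 highest of the genes with a range of at least 1 on the log2 scale, the 6 points are 2 groups of 3 arrays, and r over so few points describes the search and no more. The log2 differences (3D minus 2D) were -0.77, -0.73, -0.66, -0.65 and -1.09 (limma, adjusted p = 0.113, 0.118, 0.171, 0.157 and 0.0596), and in each gene all 3D arrays lay below all 2D arrays. CCN1 and CCN2 have their groups apart in this same way. The search therefore favoured genes with lower 3D arrays, and their differences are no separate result.

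A probe set annotated to STXBP5 and YAP1 together had signals of 7.12, 6.95 and 7.28 in 2D and of 6.97, 5.93 and 7.30 in 3D. It parted from the probe set of YAP1 alone most in 3D replicate 2, which was the highest array there and the lowest array here, and the gene behind its signal was not identified. Probe sets shared by VGLL4 and ATG7 and by ANKRD23 and ANKRD39 had every 3D array above every 2D array, at log2 differences of 0.25 and 0.36 (limma, adjusted p = 0.462 and 0.335). A probe set shared by LATS1 and PPIL4 had -0.36 (limma, adjusted p = 0.448), with overlapping groups. TYRO3, a paralog of AXL, was measured only by shared probe sets, of which that shared with ELOC had -0.19 (limma, adjusted p = 0.532) and that shared with ETFA and TYRO3P had 0.016 (limma, adjusted p = 0.964).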
